A study of Sus scrofa with 8 samples.

Results

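Of the 10 genes chosen here to represent ATF4 and the amino acid stress response, 9 had a row in the deposited table of 25285 genes, found by exact match of the symbol. They were the transcription factors ATF4, ATF5, ATF3 and DDIT3, the inhibitor TRIB3, and the enzymes CHAC1, ASNS, PHGDH and PSAT1. The other gene, DDIT4, was not analysed here. The genes were chosen on earlier results from these libraries, in which ATF4 and TRIB3 were lower and ASNS was higher in differentiated cells. Their levels in the 2 states are therefore given as a description with no test.

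The cells were primary cells of pig skeletal muscle, strain LYD in the labels, grown in culture and called MuSCs in the protocol. They were collected undifferentiated or differentiated, from females or males, with 2 libraries in each of the 4 groups and 4 in each state. The labels name no treatment, age or transgene, do not say how or for how long cells were differentiated, and do not say that replicates came from separate animals. The p-values below thus measure the spread between these libraries only. Values are FPKM, fragments scaled to transcript length and to the mapped total, and the read depth is unknown.

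Cells answer a lack of amino acids, misfolded protein in the endoplasmic reticulum or other stresses by phosphorylating the translation factor eIF2. Most protein synthesis then slows, while the ATF4 messenger RNA is translated more, so that the level of that RNA is not the level of the ATF4 protein. ATF4 pairs with other bZIP factors and turns on genes for amino acid synthesis, amino acid import and tRNA charging. Its targets DDIT3 (also called CHOP) and TRIB3 steer the later phase of the response, and in muscle this axis has been studied in growth, atrophy and mitochondrial disease.

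The summed levels of muscle markers followed the labelled state. The summed level of 6 genes of differentiated muscle was 10.4 to 25.0 FPKM in undifferentiated libraries and 11950 to 17370 FPKM in differentiated ones. Myogenic genes summed to 549.6 to 895 and to 2305 to 3158 FPKM, without PAX7 and MYF5, which were not analysed here. Of the 6 measured myogenic genes, 5 rose and 1 fell in differentiated cells, where 18.0% of all tested genes rose and 31.9% fell. Endothelial, immune and adipocyte lists summed to at most 17.1 FPKM in any library, and MYH11, a defining gene of smooth muscle, stayed under 1 FPKM. These 3 sums rest on 4 of 6, 6 of 6 and 2 of 5 genes, so that low sums may partly reflect genes that were not measured. The whole smooth muscle and pericyte list summed higher in differentiated libraries, at 1145 to 1309 against 36.5 to 89.6 FPKM. The proliferation list (7 genes) summed to 212 to 315 FPKM in undifferentiated libraries, to 19.2 to 28.5 FPKM in 3 differentiated libraries and to 77.8 FPKM in differentiated male replicate 1. Fibroblast genes also summed highest in that library, to 1460 FPKM against 599.7 to 1065 FPKM in the other differentiated ones and 368 to 782 FPKM in undifferentiated ones. Both lists are set beside the results on that library below. Cells of several kinds may be mixed in each culture, and in such bulk libraries fewer cells of a type and less RNA per cell cannot be told apart.

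Of the 9 genes, 8 were lower and 1 was higher in differentiated cells, and for each of them the 4 differentiated libraries did not overlap the 4 undifferentiated ones. The tests used the 12963 genes whose mean level reached 1 FPKM, among them all 9. Of these genes 47.3% had states that did not overlap, 30.2% below and 17.1% above, and 50.0% were called by limma. Since the genes were chosen on this contrast, nothing is read from their counts. The differences of the members ran from a log2 of -3.60 for PSAT1 to 1.11 for ASNS, with a median of -1.53, on the scale log2(FPKM + 1). The median over all tested genes was -0.18. Rescaling the libraries by median ratios raised that overall median by 0.20, and all 9 kept their direction. In size, ATF4 moved from -1.53 to -1.30 and ASNS from 1.11 to 1.34.

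**Figure D1:**
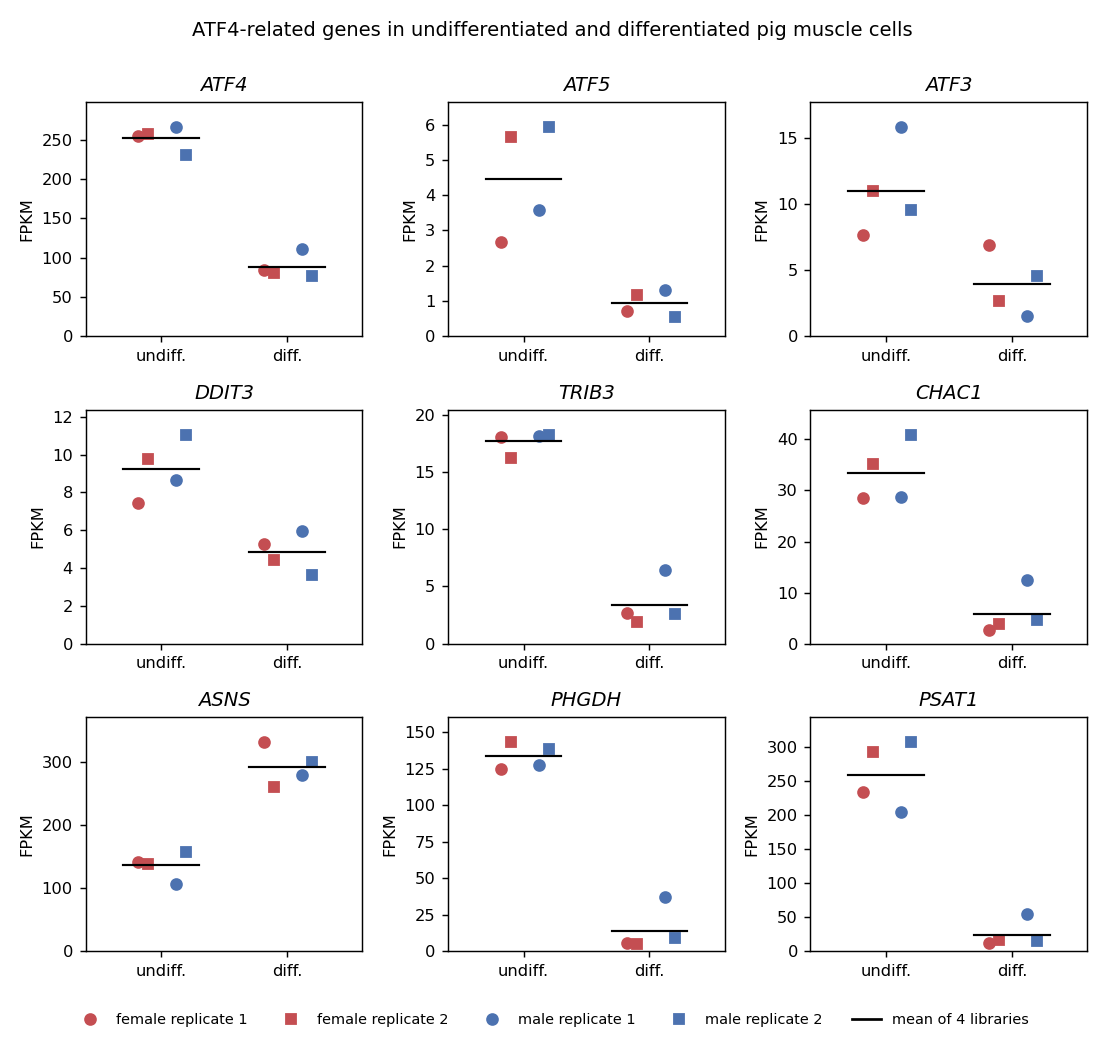
Level in FPKM (linear axis from 0) of the 9 genes in each of 8 libraries, with undifferentiated and differentiated libraries side by side. Circles are replicate 1, squares replicate 2, red is female, blue is male and the bar is the mean of 4 libraries. In the ASNS panel the differentiated libraries are the higher ones, and in the other 8 panels they are the lower ones.

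ATF4 (ENSSSCG00000000084, chromosome 5, 6042582 to 6044659 on Sscrofa10.2), the factor at the centre of the response, was the most abundant of the 4 transcription factors. Its level was 255 and 257 FPKM in undifferentiated females and 267 and 231 FPKM in undifferentiated males. In differentiated cells it was 84.5 and 80.0 FPKM in females and 111 and 76.5 FPKM in males. The means were 253 ± 15.3 and 87.9 ± 15.5 FPKM (SD, n = 4 libraries per state), a log2 difference of -1.53. The lowest undifferentiated library stood 2.09 times above the highest differentiated one. Over all 8 libraries together, 668 of the 12963 tested genes had a higher mean level than ATF4. The difference was larger for 835 genes that were lower in differentiated cells.

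ATF5 (ENSSSCG00000003201, chromosome 6, 50728147 to 50731295), a related factor tied to mitochondrial stress, was low throughout. It was at 2.65 and 5.65 FPKM in undifferentiated females, 3.59 and 5.94 FPKM in undifferentiated males, and between 0.543 and 1.29 FPKM in the 4 differentiated libraries. At such levels the added 1 FPKM shrinks the difference, which was -1.47 with it and -2.14 with 0.1 FPKM. ATF5 thus had the lowest mean level of the 9 genes, and its ratio of means was 4.78.

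ATF3 (ENSSSCG00000015595, chromosome 9, 143690556 to 143703872) is an early stress factor that is also induced by serum and injury. It was the only member for which differentiated male replicate 1 was the lowest library of its state. Its undifferentiated levels were 7.66 and 11.0 FPKM in females and 15.8 and 9.54 FPKM in males. The differentiated levels were 6.90 and 2.64 FPKM in females and 1.53 and 4.56 FPKM in males. The states came close, with the lowest undifferentiated library only 1.11 times the highest differentiated one.

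DDIT3 (ENSSSCG00000022482, scaffold JH118928.1, 116645 to 122914), the factor CHOP that promotes death in prolonged stress, had the smallest difference. It was at 7.43 and 9.77 FPKM in undifferentiated females and 8.65 and 11.1 FPKM in undifferentiated males, against 3.65 to 5.97 FPKM in differentiated libraries. The ratio of means was 1.91 and the log2 difference -0.81. The order of the 4 groups for these factors was set by state, with both undifferentiated groups above both differentiated ones. Male and female ranges overlapped within each state for all 4.

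TRIB3 (ENSSSCG00000007208, chromosome 17, 39529696 to 39602957), a pseudokinase that is induced by ATF4 and DDIT3 and damps ATF4 activity, was tightly held in undifferentiated cells. It was at 18.0 and 16.2 FPKM in females and 18.2 and 18.3 FPKM in males, a mean of 17.7 ± 0.969 FPKM (SD, n = 4). Differentiated females had 2.66 and 1.87 FPKM and differentiated males 6.40 and 2.63 FPKM. The mean of 3.39 ± 2.04 FPKM (n = 4) was raised by male replicate 1, and was 2.39 ± 0.446 FPKM (n = 3) without it. The ratio of undifferentiated to differentiated means was 5.22 with and 7.41 without that library.

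CHAC1 (ENSSSCG00000004754, chromosome 1, 145522853 to 145525603), an enzyme that breaks down glutathione and a target of the same pathway, followed a like course. It was at 28.6 and 35.2 FPKM in undifferentiated females, 28.7 and 40.9 FPKM in undifferentiated males, 2.65 and 3.76 FPKM in differentiated females and 12.6 and 4.58 FPKM in differentiated males. Differentiated male replicate 1 was again the highest of its state. The ratio of means was 5.67, and 9.10 without that library.

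The enzymes of serine synthesis had the largest differences of the set. PHGDH (ENSSSCG00000006717, chromosome 4, 111436317 to 111468486), which takes the first step from glycolysis to serine, was at 125 and 143 FPKM in undifferentiated females and 127 and 139 FPKM in undifferentiated males. Differentiated females had 5.83 and 5.24 FPKM and differentiated males 36.9 and 8.99 FPKM. PSAT1 (ENSSSCG00000005287, chromosome 1, 257809815 to 257834732), the next enzyme, was at 234 and 294 FPKM in undifferentiated females and at 204 and 308 FPKM in undifferentiated males. It was at 11.8 and 16.7 FPKM in differentiated females and at 54.6 and 15.3 FPKM in differentiated males. The log2 differences were -3.57 for PHGDH and -3.60 for PSAT1, and 103 and 101 of the 12963 genes had a larger negative one. Ratios of means were 9.38 and 10.6, and without differentiated male replicate 1 they were 19.9 and 17.8. A separate row, 30047 bp from PHGDH on the same strand and described in the table as similar to it, held 0 to 6.04 FPKM, and fragments could be divided between these rows.

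ASNS (ENSSSCG00000015340, chromosome 9, 84879390 to 84898643), asparagine synthetase and a classical target of ATF4 in amino acid lack, went the other way. It was at 142 and 139 FPKM in undifferentiated females and at 107 and 157 FPKM in undifferentiated males. Differentiated levels were 332 and 260 FPKM in females and 279 and 301 FPKM in males. The means were 136 ± 21.0 and 293 ± 30.6 FPKM (SD, n = 4), a ratio of differentiated to undifferentiated of 2.15. The lowest differentiated library stood 1.66 times above the highest undifferentiated one. In undifferentiated cells ATF4, at 253 FPKM, and PSAT1, at 260.0 FPKM, had higher mean levels than ASNS, while in differentiated cells ASNS had the highest mean level of the 9 genes. Unlike TRIB3, CHAC1, PHGDH and PSAT1, ASNS in differentiated male replicate 1 was close to the other differentiated libraries, at 0.938 times their mean.

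Within the differentiated state, male replicate 1 was the highest library for 7 of the 9 genes, the exceptions being ATF3, for which it was the lowest, and ASNS. It was the highest for 29.7% of all tested genes. Relative to the mean of the other 3 differentiated libraries it held 5.51 times as much PHGDH, 3.74 times as much PSAT1, 3.42 times as much CHAC1 and 2.68 times as much TRIB3. For ATF4 that ratio was 1.38, for DDIT3 1.34 and for ATF5 1.59, while ATF3 stood at 0.326. All 7 measured proliferation genes and all 7 measured fibroblast genes were highest in the same library. Their part in these differences was not tested.

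**Figure D2:**
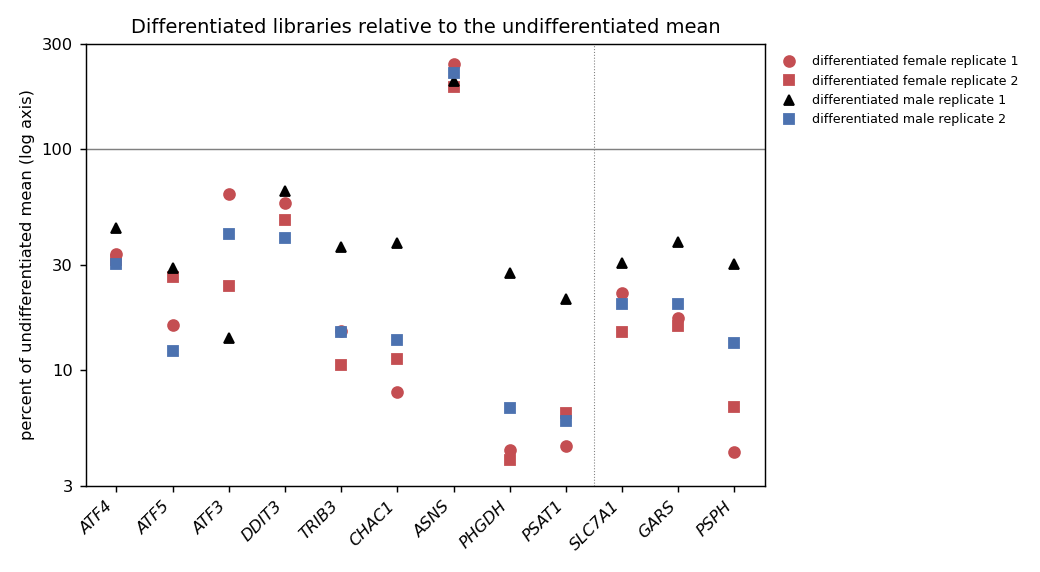
Level in each differentiated library as a percentage of the undifferentiated mean (log axis) for the 9 genes and, right of the dotted line, for SLC7A1, GARS and PSPH, which are described below. Black triangles mark differentiated male replicate 1, which is the highest point for all genes shown except ATF3 and ASNS. ASNS is the gene with points above 100.

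The comparison of females with males was not used to choose the genes and was tested with limma. Over both states, 0 of the 9 genes were called, with 0 at an unadjusted p under 0.05, where 0.0849% of all tested genes were called. Female minus male log2 differences ran from -0.78 (PHGDH, limma adjusted p = 0.555, 95% interval -1.76 to 0.19) to 0.07 (ASNS, limma adjusted p = 0.889, 95% interval -0.30 to 0.43). In undifferentiated cells alone, 0 of 9 were called and 0 had an unadjusted p under 0.05, against 0.0926% of all genes called. In differentiated cells 0 of 9 were called, against 0.0463% of all genes, and 2 had an unadjusted p under 0.05.

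These were PHGDH, at 5.53 FPKM (mean of 5.83 and 5.24) in females and 22.9 FPKM (mean of 36.9 and 8.99) in males, with a log2 difference of -1.57 ± 0.564 (SE, limma adjusted p = 0.375), and CHAC1, with -1.06 ± 0.430 (SE, limma adjusted p = 0.401). Their female and male libraries did not overlap in differentiated cells, as was so for 42.7% of tested genes. In undifferentiated cells only TRIB3 showed no overlap of the sexes, at 16.2 and 18.0 against 18.2 and 18.3 FPKM, where 31.0% of tested genes did so. The PHGDH difference in differentiated cells was -0.61 (adjusted p = 0.451) without differentiated male replicate 1. Without differentiated male replicate 2, which left replicate 1 to stand for males, it was -2.54 (adjusted p = 0.0151), and the difference over both states was -1.26 (adjusted p = 0.033). In such fits the lone library is assumed to vary like the others.

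Whether the states differed by unlike amounts in the sexes was tested as an interaction, which called 0 of the 9 genes, with 0 at an unadjusted p under 0.05, and 0.0231% of all genes. PHGDH had the largest estimate, with state differences of -4.37 in females and -2.78 in males (log2). The difference of -1.58 between them had a 95% interval of -3.53 to 0.36 (limma adjusted p = 0.818). For ATF4 the state differences were -1.63 and -1.42 (interval of their difference -0.86 to 0.45). For ASNS they were 1.06 and 1.15 (-0.83 to 0.64). With 2 libraries per group these intervals were wide, and a difference between the sexes of any size within them remains possible.

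Genes whose course over the 8 libraries was most like that of 3 members were found by the root mean square difference of centred log2 values. Nearest to ATF4 were ZFP36L2, an RNA-binding protein that promotes messenger RNA decay (0.0675), IL17RA, an interleukin receptor (0.0983), and EHD4, a protein of endosomes (0.0991). ZFP36L2 went from 138 ± 12.7 to 46.9 ± 8.67 FPKM (SD, n = 4). Nearest to TRIB3 were NDRG1, a gene raised by hypoxia and stress (0.129), ANXA5, an annexin (0.153), and GARS, glycyl-tRNA synthetase (0.155). Among the other members CHAC1 was closest to TRIB3, at 0.327 and rank 158 among the named genes. Nearest to ASNS were ARHGEF6, an exchange factor for small GTPases (0.128), KDM1B, a histone demethylase (0.131), and FAM174A (0.136). The distance of ASNS from ATF4 was 1.34, which put it at rank 9170 among the named genes nearest to ATF4. Each gene was centred over all 8 libraries, so the difference between the states counts in the distance. ATF4, TRIB3 and ASNS were chosen with the direction of that difference known. The distance of ASNS, higher in differentiated cells, from ATF4, lower there, was thus largely set by the choice. The neighbours of ATF4 likewise had state differences (log2 -1.55, -1.55 and -1.64) near its own of -1.53.

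The rest of the pathway was measured through 11 lists of 240 genes, none of them a member, of which 201 were in the table and 185 were tested. Between the states, with both sexes weighted equally, 107 of the 185 fell and 24 rose in differentiated cells (limma, Benjamini-Hochberg adjusted over all genes). The lists were chosen with earlier results of these data known, and some genes named below after their values were seen. These counts and p-values are therefore no independent test of the pathway. Among all tested genes 31.9% fell and 18.0% rose, which is the background for each list count below. The median of the listed genes was -0.52, beside -0.18 over all. Under median-ratio scaling 82 fell and 31 rose, while over all genes 2920 fell and 3220 rose in place of 4137 and 2339. Without differentiated male replicate 1, 101 of the listed genes fell and 21 rose. All 7 proliferation genes fell as well, and their part in the falls of the lists was not tested. Differentiated male replicate 1 was the highest library of its state for 82 of the 185 genes (44.3%), against 29.7% of all tested genes. By list this was so for 14 of 18 tRNA synthetase genes, 16 of 23 of the unfolded protein response, 7 of 11 of the serine list, 9 of 16 transporters, 8 of 19 other amino acid enzymes and 6 of 15 glucocorticoid and hypoxia genes. It was so for 5 of 15 eIF2 genes, 4 of 12 mitochondrial stress genes, 6 of 24 mTORC1 genes, 4 of 17 other ATF4 and CHOP targets and 3 of 15 bZIP genes.

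**Figure D3:**
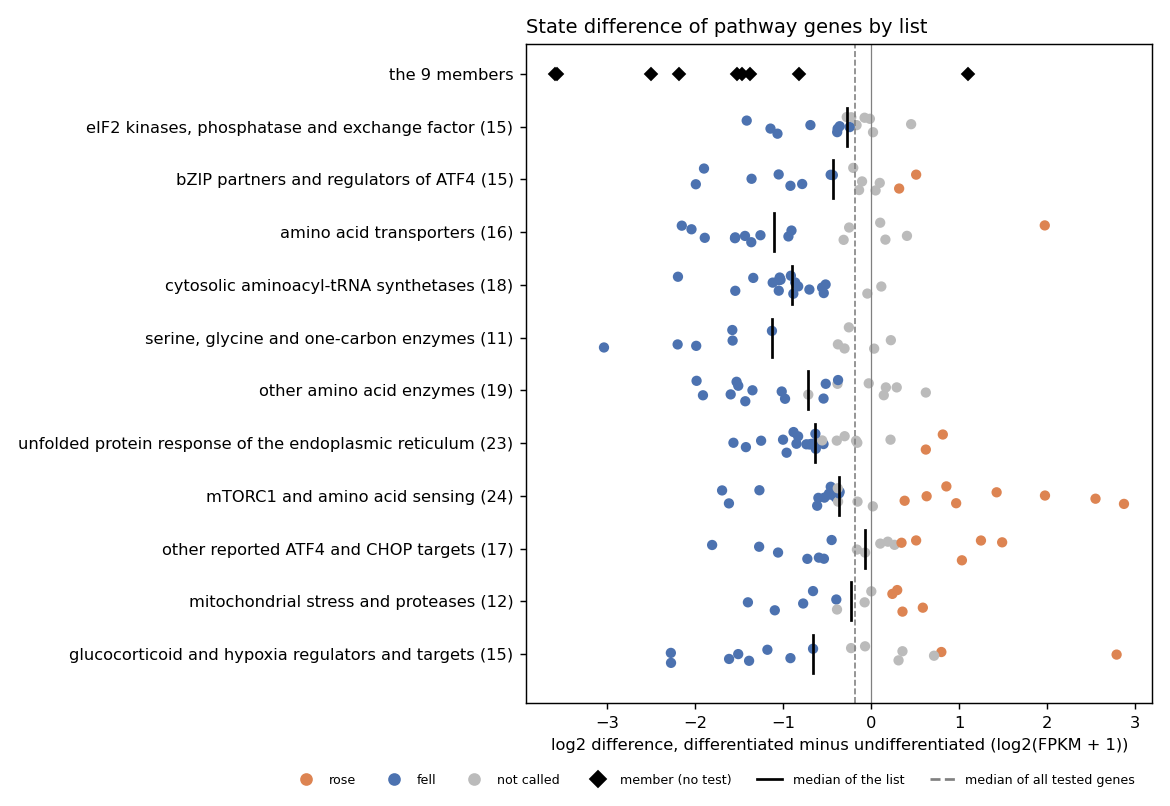
Log2 difference, differentiated minus undifferentiated, of each tested gene of 11 pathway lists (number tested in parentheses), with the 9 members on top as diamonds, which have no test. Blue genes fell, orange genes rose and grey genes were not called. The black bar is the median of the list, the dashed line the median of all tested genes. The medians of the amino acid transporters, tRNA synthetases and serine list lie furthest to the left, at -1.10, -0.90 and -1.13.

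Of 15 genes that set eIF2 phosphorylation and the exchange factor it blocks, 8 fell and 0 rose, with a median of -0.28. Among the eIF2 kinases, the amino acid sensor EIF2AK4 (GCN2) fell from 40.9 ± 5.63 to 18.0 ± 2.69 FPKM (SD, n = 4, log2 -1.14 ± 0.127 SE, limma adjusted p = 0.000841). The EIF2AK4 row covers only 146448917 to 146451468 on chromosome 1, and whether it holds the whole gene was not checked. The kinase of the endoplasmic reticulum, EIF2AK3 (PERK), fell from 14.1 ± 2.28 to 6.199 ± 0.642 FPKM (log2 -1.06, limma adjusted p = 0.00101), and EIF2AK2 (PKR), which senses double-stranded RNA, by a log2 of -1.41. The heme-regulated EIF2AK1 was not called, at 32.7 ± 3.82 and 26.7 ± 0.955 FPKM (log2 -0.28, adjusted p = 0.0571), but was called without undifferentiated male replicate 2 (log2 -0.36, adjusted p = 0.03). IMPACT, an inhibitor of GCN2, fell (log2 -0.69). These 4 calls held under all 14 alternative settings.

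The other calls of that list were small. The GCN2 activator GCN1L1 (log2 -0.38), the phosphatase subunit PPP1R15B (-0.36) and the exchange factor subunits EIF2B2 (-0.39) and EIF2B5 (-0.24) fell. Under median-ratio scaling and under quantile normalization each of these calls ended, leaving 4 falls in the list. The calls of PPP1R15B, EIF2B2 and EIF2B5 also ended under the replicate block and on leaving out some single libraries. That of GCN1L1 also ended without undifferentiated female replicate 1. Not called were PPP1R15A (GADD34), the stress-induced phosphatase subunit and itself an ATF4 target, at 13.3 ± 1.597 and 11.8 ± 2.09 FPKM (log2 -0.17, adjusted p = 0.217, and log2 0.05 under median-ratio scaling), EIF2S1, the eIF2 subunit that is phosphorylated (-0.23), and EIF2B1 (-0.01), EIF2B3 (-0.07), EIF2B4 (0.46) and NCK1 (0.02). The EIF2B4 row likewise covers only 118690983 to 118692343 on chromosome 3.

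Of 15 tested bZIP partners and relatives, 8 fell and 2 rose, beside 31.9% and 18.0% of all tested genes. FOSL1 (log2 -1.99) and FOS (log2 -1.90), which are serum-induced AP-1 factors, fell most. CEBPB and CEBPG, C/EBP factors known to pair with ATF4, fell from 24.7 ± 3.42 to 11.5 ± 1.92 FPKM and from 26.8 ± 2.48 to 15.3 ± 2.97 FPKM (SD, n = 4, limma adjusted p = 0.00249 and 0.00222). NFE2L1, a factor that controls proteasome genes, rose from 65.1 ± 2.09 to 93.6 ± 10.6 FPKM (log2 0.51, limma adjusted p = 0.00438). The rise of ATF7 (log2 0.32, limma adjusted p = 0.0287) was lost under the replicate block (limma adjusted p = 0.054) and on leaving out 1 library in 6 of 8 cases. Over the 8 cases its log2 was 0.27 to 0.36.

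In the list for the serine pathway and the folate cycle that uses serine, 6 of 11 tested genes fell, 0 rose and 5 were not called, with a median of -1.13. Under median-ratio scaling the counts were 6 falls and 1 rise. PSPH, the last enzyme of serine synthesis, was at 64.6, 72.9, 52.4 and 73.4 FPKM in undifferentiated libraries. It was at 2.81 and 4.46 FPKM in differentiated females and at 19.9 and 8.75 FPKM in differentiated males, so that male replicate 1 was again the highest of its state (log2 -3.04 ± 0.277 SE, limma adjusted p = 0.000446). The mitochondrial folate enzymes MTHFD1L (log2 -1.99), MTHFD2 (-1.58) and ALDH1L2 (-1.57), known ATF4-linked genes, fell, as did the cytosolic MTHFD1 (-1.13). TYMS, which makes thymidylate for DNA synthesis and is a gene of proliferating cells, fell from 98.02 ± 19.1 to 21.0 ± 7.32 FPKM (log2 -2.20, limma adjusted p = 0.000666). The TYMS row covers only 45134 to 48316 of scaffold GL896245.1, and whether it holds the whole gene was not checked.

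The tRNA charging genes had the highest share of falls. Of 18 tested cytosolic synthetase genes and their scaffold proteins, 16 fell and 0 rose (median -0.90), and 14 fell under median-ratio scaling. GARS, glycyl-tRNA synthetase, was at 220.2, 255, 196 and 253 FPKM in undifferentiated libraries and at 39.8, 36.6, 88.2 and 45.9 FPKM in differentiated ones, the highest of these being male replicate 1 (log2 -2.20 ± 0.219 SE, limma adjusted p = 0.000598). YARS, tyrosyl-tRNA synthetase, fell from 37.6 ± 2.34 to 12.5 ± 3.32 FPKM (SD, n = 4, log2 -1.54, limma adjusted p = 0.000286). Those that were not called were KARS, lysyl-tRNA synthetase, at 247 ± 38.0 and 238 ± 20.7 FPKM (log2 -0.04, and 0.19 under median-ratio scaling), and the scaffold gene AIMP2 (log2 0.12, and -0.05 without differentiated female replicate 2).

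**Figure D4:**
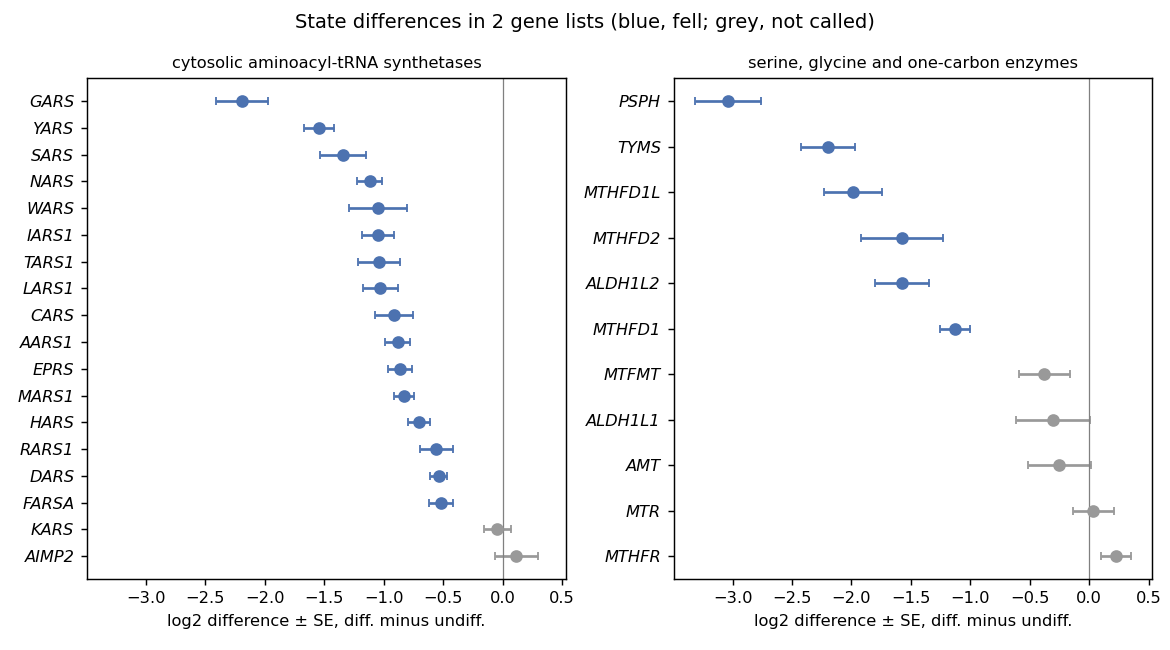
Log2 difference, differentiated minus undifferentiated, with its standard error from limma, for the tested genes of the tRNA synthetase list (left) and of the serine, glycine and folate list (right), sorted by size. Blue genes fell and grey genes were not called. GARS and PSPH lead the lists, while KARS and AIMP2 lie near 0.

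Amino acid transporters fell in 10 of 16 tested genes and rose in 1, with a median of -1.10. SLC38A1, a glutamine transporter, fell from 66.2 ± 3.83 to 14.6 ± 4.39 FPKM (SD, n = 4, log2 -2.15 ± 0.0884 SE, limma adjusted p = 2.78e-05). SLC7A1, the transporter of arginine and lysine, fell from 34.4 ± 9.85 to 7.54 ± 2.27 FPKM (log2 -2.04, limma adjusted p = 0.00137). SLC3A2, the heavy chain shared by several transporters, fell (log2 -1.26), while SLC3A1, the related heavy chain, rose from 1.42 ± 0.249 to 8.55 ± 1.52 FPKM (log2 1.97, limma adjusted p = 0.000316). SLC7A11, the cystine transporter and an ATF4 target, was called with a log2 of -1.36 (adjusted p = 0.0427), a call that ended under 10 of the 14 alternatives (adjusted p = 0.062 to 0.123), with differentiated male replicate 1 at 17.8 FPKM and the others at 4.16 to 6.37 FPKM.

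Of 19 other enzymes of amino acid metabolism 12 fell and 0 rose (median -0.71). GPT2, mitochondrial alanine transaminase, fell from 24.0 ± 3.09 to 5.80 ± 3.00 FPKM (log2 -1.98, limma adjusted p = 7.02e-05), and OAT, ornithine aminotransferase, from 15.4 ± 4.30 to 3.86 ± 2.81 FPKM (log2 -1.91, limma adjusted p = 0.000838). Under median-ratio scaling the counts were 8 falls and 2 rises.

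The unfolded protein response of the endoplasmic reticulum, which feeds into ATF4 through PERK, fell in 15 of 23 tested genes and rose in 2 (median -0.64). HSPA5 (BiP), its main chaperone, fell from 411 ± 20.1 to 157 ± 45.9 FPKM (SD, n = 4, log2 -1.42, limma adjusted p = 0.000606). SERP1 fell (log2 -1.56, adjusted p = 0.0271) but missed the threshold under median-ratio scaling (0.0533) and on leaving out 1 library in 6 of 8 cases (0.0508 to 0.0772). DNAJB9, a co-chaperone (log2 0.82), and HERPUD1, a protein of degradation at that organelle (log2 0.62), rose. The HERPUD1 row covers only 21 to 1630 of scaffold GL894488.1, and whether it holds the whole gene was not checked.

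Genes of mTORC1, the growth kinase that amino acids switch on, went both ways, with 8 of 24 rising and 12 falling, and 8 and 5 under median-ratio scaling. Of all 12963 tested genes 18.0% rose and 31.9% fell, and 3220 rose and 2920 fell under that scaling. The median of this list was -0.37 and its mean 0.08, so that they differed in sign. DEPTOR, an inhibitor of mTOR, rose from 2.88 ± 2.32 to 24.8 ± 4.81 FPKM (log2 2.87, limma adjusted p = 0.00103), and RRAGD, a GTPase that carries the amino acid signal, from 3.14 ± 0.969 to 23.0 ± 3.78 FPKM (log2 2.55, limma adjusted p = 0.000272). DDIT4L, the relative of DDIT4 and likewise an inhibitor of mTORC1, rose from 2.37 ± 1.80 to 11.2 ± 3.64 FPKM (log2 1.98, limma adjusted p = 0.00132). EIF4EBP1, a translation inhibitor and an ATF4 target, fell from 359 ± 24.1 to 112 ± 24.2 FPKM (log2 -1.69, limma adjusted p = 0.000404). SESN2, a leucine sensor induced by ATF4, fell (log2 -1.62) while its relative SESN1 rose (log2 0.97).

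Other genes reported as targets of ATF4 or CHOP went both ways, with 7 of 17 falling and 5 rising, and 4 and 6 under median-ratio scaling, with a median of -0.07. Over all 12963 tested genes 31.9% fell and 18.0% rose, and 2920 fell and 3220 rose under that scaling. HMOX1, heme oxygenase, fell from 63.4 ± 15.2 to 17.0 ± 1.44 FPKM (log2 -1.81, limma adjusted p = 0.00028), and SARS2, the mitochondrial seryl-tRNA synthetase, by a log2 of -1.27 (adjusted p = 0.0255), which missed the threshold under median-ratio scaling (0.051) and on leaving out 1 library in 5 of 8 cases (0.0611 to 0.082). KLHL24 (log2 1.49) and BBC3 (PUMA, log2 1.25), a promoter of cell death, rose. FGF21, a hormone released in mitochondrial stress of muscle, was listed at 0 in 7 libraries and at 1.88 FPKM in undifferentiated male replicate 2, and was not tested.

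Of 12 mitochondrial stress genes 5 fell and 4 rose, beside 31.9% and 18.0% of all tested genes. The chaperones HSPD1 (from 202 ± 8.12 to 77.1 ± 17.8 FPKM, log2 -1.40) and HSPE1 (log2 -1.09) fell. OMA1 (log2 0.59), a protease that starts the mitochondrial signal to eIF2, and YME1L1 (log2 0.36), another inner membrane protease, rose. The call of OMA1 was lost on leaving out 1 library in 6 of 8 cases (0.0541 to 0.0727), and that of YME1L1 without undifferentiated female replicate 2 (0.055). With 1 library left out, 0 to 2 of the 4 rises of the list were left, and 0 without undifferentiated female replicate 2. Among 15 genes of the glucocorticoid and hypoxia responses 8 fell and 2 rose, beside the same shares of all tested genes. ADM (log2 -2.28) and NDRG1 (from 38.2 ± 4.45 to 8.03 ± 5.41 FPKM, log2 -2.27) fell most. EGLN3, a prolyl hydroxylase, rose from 3.51 ± 0.593 to 30.6 ± 6.73 FPKM (log2 2.79, limma adjusted p = 0.000185), and TSC22D3, a glucocorticoid target, by a log2 of 0.80.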

How the data were processed

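RNA of 8 libraries was read as 100-bp paired ends from a stranded total RNA kit, per the labels' protocols, which give the molecule as polyA RNA. The authors deposited FPKM per gene, which the submitters' processing notes tie to Sscrofa10.2 and to the tools Cufflinks 2.2.1, TopHat2 2.0.12.1 and cutadapt 1.6, naming no order, with settings not given in the sources used here. FPKM hold no counts, so no count test was used. Of 25285 genes, 16274 carried a symbol and 1841 were named from an Ensembl table. The 12963 genes whose mean reached 1 FPKM were tested as log2(FPKM + 1) in R 4.3.3 with limma 3.58.1 (1 mean per group, trend, 4 residual degrees of freedom, two-sided, Benjamini-Hochberg over all genes, called under 0.05). "Rose" and "fell" mean called, and ± is SD unless SE is written.

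The members and lists were chosen with earlier results of these data known. Named were all members, the 2 most risen and 2 most fallen called genes of each list, the tested eIF2 genes and the 3 nearest genes to ATF4, TRIB3 and ASNS. Marker genes serve as checks, and further genes (CEBPB, CEBPG, KARS, AIMP2, MTHFD1, MTHFD1L, MTHFD2, ALDH1L2, SLC7A11, SLC3A2, DDIT4L, SESN1, FGF21) were picked after their values were seen. Whether replicate numbers pair the libraries is unknown, and the main fit did not pair them. The code was tested on simulated data. Alternatives were a pseudocount of 0.1, no filter, 2 rescalings, a replicate block, each library left out and, chosen after seeing the data, genes under 300 bp left out. The result of 1 marker list is not reported here.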

Additional observations from a re-analysis of the deposited data

Results flagged for a closer look

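In 3 of the 18 sets of 4 libraries examined (9 genes in 2 states), 1 library stood far from the other 3, by a gap to the nearest above the critical share of the whole range in Dixon's test. Chance flags about 1 in 20 such sets. For PHGDH the gap of differentiated male replicate 1 (36.9 FPKM, the others 5.24 to 8.99) was 0.881 of the range. For PSAT1 the same library (54.6 FPKM, the others 11.8 to 16.7) had a gap of 0.884. The proliferation genes summed to 77.8 FPKM in that library and to 19.2 to 28.5 FPKM in the other differentiated ones, and their part was not tested. For TRIB3, undifferentiated female replicate 2 (16.2 FPKM) lay below the other 3 (18.0 to 18.3 FPKM), a gap of 0.886.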

How the results depend on the processing

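All 9 members kept their direction under the 14 alternatives, of which 8 left out 1 library each and moved PHGDH between -4.05 and -3.09 and ASNS between 0.97 and 1.24 (log2). Of 51 named pathway genes that were called, 41 kept the call under all alternatives, 10 lost it under at least 1 and 0 changed sign. Most of these were named for the largest changes of their lists or after their values were seen, so they do not stand for the lists. Over all lists the 107 falls became 82 under median-ratio scaling and 92 under quantile normalization. Among all tested genes the 4137 falls became 2920 and 3302 under these settings. EIF2AK1 gained a call without undifferentiated male replicate 2. Where a count of calls moved by over 1.5 times, the cause was not tested. Without the filter on low values, 2 amino acid transporters rose (1 before). Under median-ratio scaling 2 transporters, 1 serine gene, 2 other amino acid enzymes and 4 glucocorticoid and hypoxia genes rose, and 4 eIF2 genes, 5 mTORC1 genes and 4 other ATF4 and CHOP targets fell. Under quantile normalization 2 transporters and 1 other amino acid enzyme rose, and 4 eIF2 and 6 mTORC1 genes fell. Without genes under 300 bp, an alternative chosen after seeing the data, 1 other amino acid enzyme rose. With 1 library left out, the counts that rose were 1 to 2 bZIP genes, 0 to 2 mitochondrial stress genes, 0 to 1 other amino acid enzymes and 1 to 2 transporters, 5 to 8 eIF2 genes fell, and 0 to 1 members were called for sex.

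Libraries with the same replicate number did not deviate together over 12963 genes (correlation 0.07 in females and -0.03 in males). With 2 libraries per group this cannot show whether they share an animal, which the labels do not say. With a replicate block 2206 of all genes rose and 3948 fell, and of the lists 1 bZIP gene, 2 transporters, 1 other amino acid enzyme and 2 mitochondrial stress genes rose and 5 eIF2 genes fell. FPKM without counts give no depth, so that precision at low levels, as for ATF5, is unknown.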
